A study of Mus musculus with 16 samples.

Results

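The interleukin 1 family genes and receptors were followed in mouse dorsal skin as 9 genes chosen by symbol: the ligands Il1a, Il1b, Il18 and Il33, the receptor antagonist Il1rn, and the receptor genes Il1r1, Il1r2, Il1rl1 and Il1rap. All 9 were found, each in 1 row, among the 23238 gene symbols of the deposited tables, and all 9 were among the 14854 rows tested. The rule took symbols and no measured value, and it was set with earlier results of these data known.

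Skin from 16 male wild-type C57BL/6N mice, 4 in each of 4 groups, was profiled by QuantSeq, a method that reads 1 tag near the 3′ end of each polyadenylated transcript. Mice were bought at 3 weeks of age and kept for 1 week before the experiment. The Cont group ate normal chow. The LowAhR group received for 12 weeks a diet low in ligands of the aryl hydrocarbon receptor (AhR), a transcription factor that senses dietary and environmental small molecules. The study's methods also give paper bedding free of AhR ligands for this diet, so diet and bedding cannot be told apart. The LowAhR+AD group ate the same diet and had 1% 2,4-dinitrochlorobenzene (DNCB), a contact sensitizer used to raise dermatitis-like inflammation, painted on the back for 10 weeks, starting after 2 weeks of the diet. The LowAhR+AD+BJ group had the diet and DNCB and was also given Bojungikgi-tang (BJIKT), a herbal extract, by gavage at 1 g/kg/day. No group received DNCB on normal chow, so the effect of DNCB was measured only on the low AhR ligand diet. DNCB is a model of dermatitis, and whole skin pieces hold epidermis, dermis, fat and some muscle, so fewer cells of a type and less RNA per cell cannot be told apart in any value below.

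Interleukin 1α (Il1a) and interleukin 1β (Il1b) both bind the receptor encoded by Il1r1, which then recruits the shared accessory chain encoded by Il1rap and signals through the adaptor MyD88 to NF-kB. The antagonist encoded by Il1rn occupies the same receptor without signalling, and Il1r2 encodes a decoy receptor that binds interleukin 1 but lacks the signalling domain. Interleukin 33 is an alarmin of barrier cells that signals through the Il1rl1 product ST2, and interleukin 18 has a receptor pair of its own. In skin, keratinocytes store interleukin 1α and make interleukin 33 and 18, while interleukin 1β is made mainly by myeloid cells and has to be cut by a protease such as caspase 1, so its mRNA level is not the level of the active cytokine.

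The library totals were 7080508 to 8051425 counts in Cont, 7436315 to 8773876 in LowAhR, 11336051 to 13467477 in LowAhR+AD and 10614393 to 12999055 in LowAhR+AD+BJ, so the DNCB libraries were deeper without overlap, and depth and DNCB cannot be told apart in the comparisons between them. At these depths 3 counts in a library corresponded to 0.229 to 0.406 CPM, the counts scaled to a common library size with TMM factors, which is the unit of all levels below. LowAhR+AD replicate 1 stood apart. In that library 32.6% of the genes expected at 20 to 40 counts from the other replicates were listed at 0, against at most 13.8% in the other 15 libraries, and values without it are given beside the results it touched. Keratin 5 and keratin 14 were read as a check of skin identity, with lowest values over all libraries of 917 CPM for Krt5 and 596 CPM for Krt14. Other genes of the same list of 7 basal and suprabasal keratinocyte markers fell far lower. The lowest values were 20.2 CPM for Krt10, in LowAhR+AD, and 15.2 CPM for Krt1, in LowAhR+AD+BJ.

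Of the 9 genes, 2 passed the test in any comparison of the full set of libraries: Il1b was higher and Il1r2 was lower in DNCB-painted skin. The bases before their annotated starts are shown because these are the genes on which the results turn. Each run holds the 250 bases upstream of the RefSeq start in build GRCm38.p6 (mm10), 5′ to 3′ on the strand of the gene. Capitals mark a CEBP-type match in Il1b and 2 AhR core matches in Il1r2.
Il1b, chr2:129371140-129371389, minus strand: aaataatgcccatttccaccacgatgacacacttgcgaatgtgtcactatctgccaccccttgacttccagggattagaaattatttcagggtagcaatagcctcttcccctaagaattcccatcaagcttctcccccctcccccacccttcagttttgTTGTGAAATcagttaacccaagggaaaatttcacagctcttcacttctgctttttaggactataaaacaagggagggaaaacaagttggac
Il1r2, chr1:40085843-40086092, plus strand: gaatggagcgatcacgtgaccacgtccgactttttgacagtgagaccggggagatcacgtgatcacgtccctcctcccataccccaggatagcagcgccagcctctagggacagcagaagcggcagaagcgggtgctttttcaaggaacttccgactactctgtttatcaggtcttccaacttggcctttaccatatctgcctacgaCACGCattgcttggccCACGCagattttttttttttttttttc

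Both strands of the 14 RefSeq windows of the 9 genes were searched for 4 motifs, and overlapping matches were allowed. The motifs were the AhR core GCGTG, the AP-1 site TGANTCA, a CEBP-type site TTNNGNAAT and the NF-kB consensus. The Il1b window held 1 match, the CEBP-type TTGTGAAAT from base -91 to -83 counted from the start, a motif present in 10.2% of the 32851 promoters of the table. The CEBP-type site lay in 5 of the 14 windows, in 4 genes: Il1b, Il1r1, Il1rl1 and Il1rn. The Il1r2 window held the AhR core on its other strand (CACGC), from base -43 to -39 and from -27 to -23. That core was found in 28.2% of all promoters and in 5 of the 14 windows, 1 each in 5 genes. The AP-1 site lay in 2 of the 14 windows, those of Il1a and Il1rn (6.75% of all promoters), and the NF-kB consensus in 1, of Il1r1 (7.25%). These are matches of letters and not sites of binding, and their part in the results was not tested.

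In the GRCm38 annotation, Il1r2 (chromosome 1, 40074079 to 40125231), Il1r1 (40225080 to 40317257) and Il1rl1 (40429570 to 40465415) lie in this order on the plus strand of chromosome 1. Il1a (129299610 to 129309972) and Il1b (129364570 to 129371139) are neighbours on the minus strand of chromosome 2, and Il1rn (24336853 to 24351494) lies on its plus strand. Il18 is on chromosome 9 (50554827 to 50581840), Il1rap on chromosome 16 (26581704 to 26730117) and Il33 on chromosome 19 (29925114 to 29960718), all on the plus strand. The annotated start of Il1r2 in this gene set is upstream of the RefSeq start used for the printed window.

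Il1b, the inflammatory ligand induced in activated myeloid cells, was the ligand that passed the test. In Cont it stood at 7.57, 6.33, 11.0 and 11.6 CPM in replicates 1 to 4, and in LowAhR at 5.28, 6.66, 20.9 and 5.61 CPM. In LowAhR+AD it stood at 27.2, 26.5, 40.4 and 82.7 CPM, and in LowAhR+AD+BJ at 167, 124, 14.9 and 51.9 CPM. All 4 LowAhR+AD libraries were above every library without DNCB, and 3 of the 4 LowAhR+AD+BJ libraries were as well.

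Il1b was 4.59-fold higher in LowAhR+AD than in LowAhR (log2 fold change 2.20, SE 0.61, edgeR quasi-likelihood test, Benjamini-Hochberg adjusted p = 0.0245; exact permutation p = 0.0286, the smallest that 4 against 4 allows). Over all tested genes 6.42% were called higher and 6.21% lower in this comparison. Against Cont the LowAhR+AD difference of Il1b was 2.27 on the log2 scale (SE 0.61, edgeR adjusted p = 0.0129), where 12.3% of all genes were called higher and 9.47% lower. Without LowAhR+AD replicate 1 the log2 fold changes were 2.37 against LowAhR (edgeR adjusted p = 0.0220) and 2.43 against Cont (edgeR adjusted p = 0.00941).

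The call against LowAhR was lost without LowAhR replicate 1 (log2 fold change 2.00, edgeR adjusted p = 0.0781), LowAhR replicate 2 (2.06, adjusted p = 0.0740), LowAhR replicate 4 (2.01, adjusted p = 0.0568) or LowAhR+AD replicate 4 (1.71, adjusted p = 0.0824). These fold changes lay within 1 SE of the value from all libraries. Without LowAhR replicate 3, the highest of its group, the log2 fold change was 2.92. The call against Cont was lost without LowAhR+AD replicate 4 (log2 fold change 1.78, edgeR adjusted p = 0.0523). With limma voom in place of edgeR neither passed (adjusted p = 0.127 against LowAhR and 0.111 against Cont), although the fold changes were close to those above.

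Il1b was also higher in LowAhR+AD+BJ than in LowAhR, 9.30-fold (log2 fold change 3.22, SE 0.63, edgeR adjusted p = 0.00672; exact permutation p = 0.0571, groups overlapping through LowAhR+AD+BJ replicate 3). In this comparison 3.64% of all genes were called higher and 3.12% lower. Without LowAhR replicate 3 the log2 fold change was 3.94, and with limma voom the adjusted p was 0.0794. Between the DNCB groups the fitted Il1b difference was 1.02 toward LowAhR+AD+BJ (SE 0.58, edgeR adjusted p = 0.580), a size within the spread of the mice, since 2 LowAhR+AD+BJ libraries lay above and 1 lay below all LowAhR+AD libraries.

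**Figure D1:**
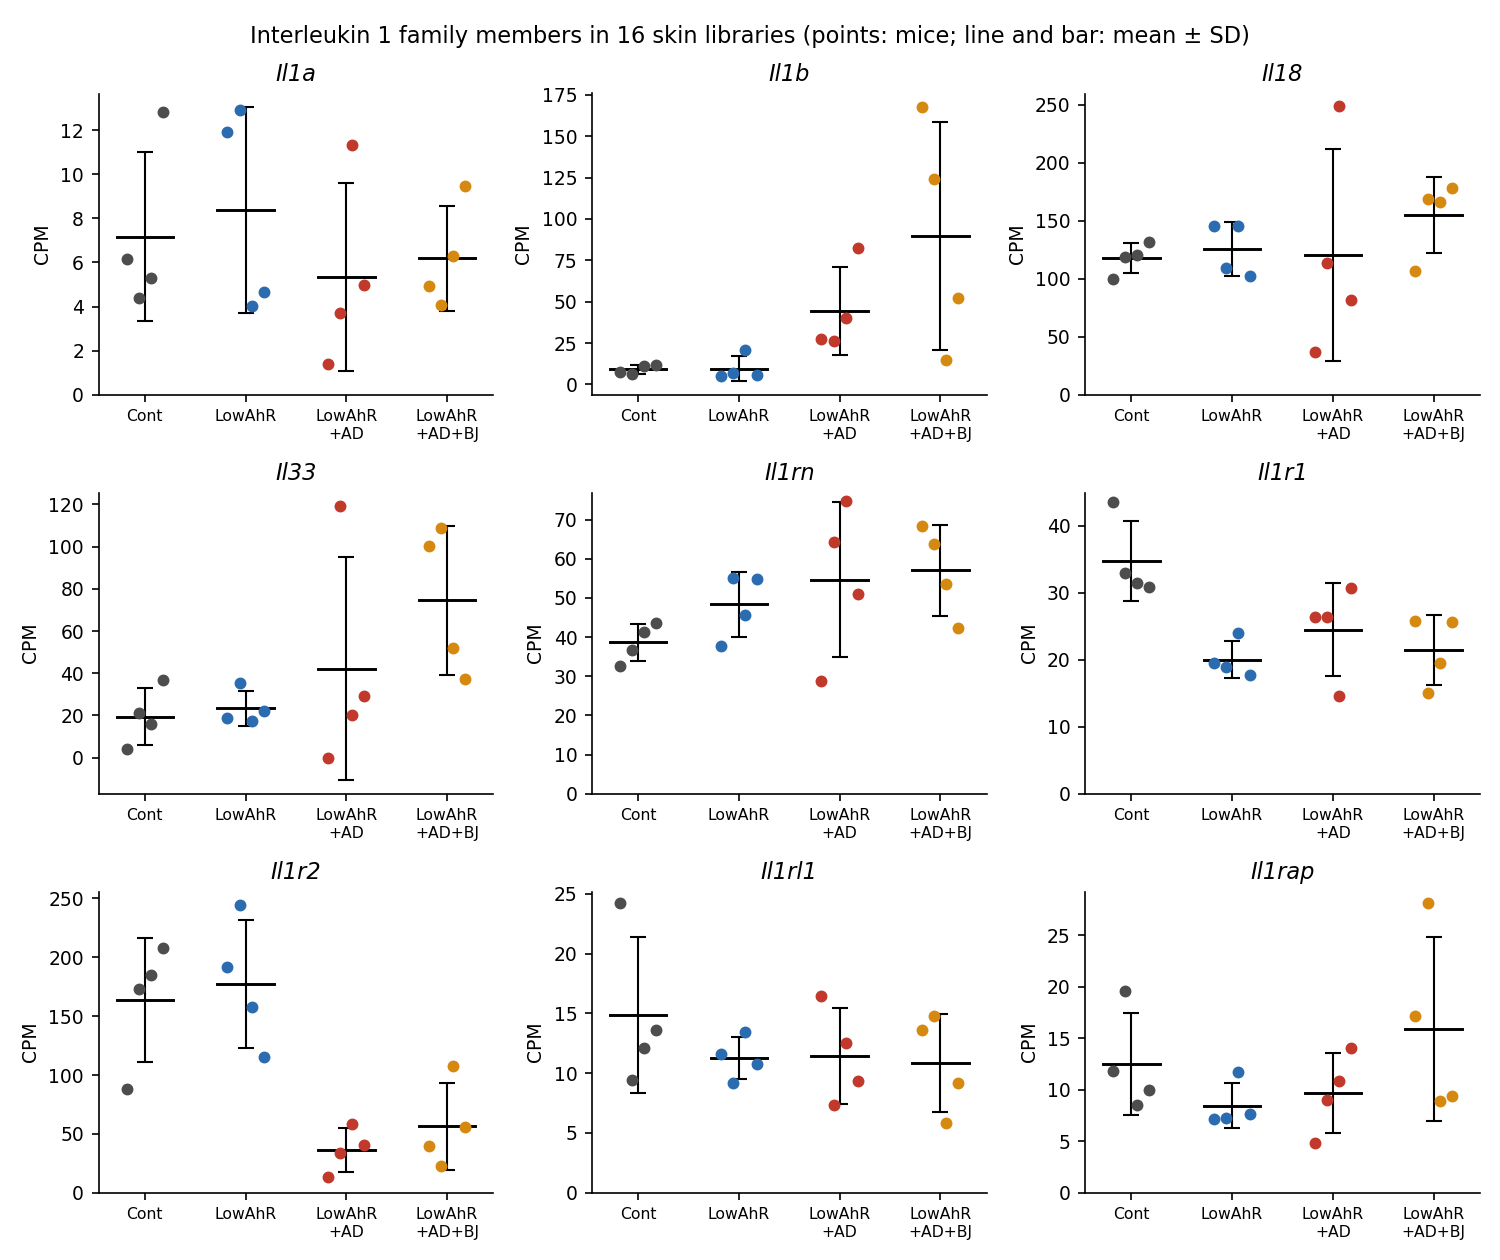
Level of each of the 9 genes in each library (vertical axis, TMM-scaled CPM on a linear axis that differs between panels), by group; points are mice, the line is the mean and the bar is ± SD (n = 4). The mean of Il1b is 44.2 CPM in LowAhR+AD against 9.62 CPM in LowAhR, and that of Il1r2 is 36.4 against 177 CPM.

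Il1a, the other agonist of the same receptor, did not follow Il1b. Its levels were 4.39 to 12.8 CPM in Cont, 4.03 to 12.9 CPM in LowAhR, 1.37 to 11.3 CPM in LowAhR+AD and 4.07 to 9.48 CPM in LowAhR+AD+BJ. The 4 ranges overlapped, and the fitted difference between LowAhR+AD and LowAhR was -0.65 (SE 0.61, edgeR adjusted p = 0.525).

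Il18, which keratinocytes express without stimulation, had a median of 119.7 and a highest value of 132 CPM in Cont and was at 102 to 146 CPM in LowAhR. It was spread from 36.5 to 249 CPM in LowAhR+AD, where replicate 1 was lowest and replicate 3 highest, and from 107 to 178 CPM in LowAhR+AD+BJ. The fitted difference of LowAhR+AD from LowAhR was -0.06 (SE 0.38, edgeR adjusted p = 0.937), and its sign changed without replicate 1 (0.23, adjusted p = 0.679).

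Il33, the alarmin read by ST2, varied widely between mice of a group. It stood at 4.11, 21.1, 16.2 and 36.6 CPM in Cont, at 18.8, 35.2, 17.4 and 21.96 CPM in LowAhR, at 0, 119, 20.4 and 29.0 CPM in LowAhR+AD and at 100.2, 109, 52.0 and 37.1 CPM in LowAhR+AD+BJ. The 0 was in the library that stood apart, where 3 counts would have been 0.229 CPM. All 4 LowAhR+AD+BJ libraries lay above all 4 LowAhR libraries (log2 fold change 1.67, SE 0.93, edgeR adjusted p = 0.312; exact permutation p = 0.0286). In that comparison 17.1% of all genes had groups without overlap. The Il33 difference passed only when the model held just the 8 libraries of these groups (log2 fold change 1.66, edgeR adjusted p = 0.0190), and without LowAhR+AD replicate 1 its edgeR adjusted p was 0.0690. LowAhR+AD against LowAhR gave 0.85 (SE 0.91, edgeR adjusted p = 0.585), a value that turned to -0.50 without LowAhR+AD replicate 2 and to -1.76 with limma voom.

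Il1rn, the natural antagonist, was at 32.7, 36.8, 41.3 and 43.6 CPM in Cont and at 37.7, 55.2, 45.7 and 54.8 CPM in LowAhR. It was at 28.8, 64.3, 74.6 and 51.1 CPM in LowAhR+AD and at 68.4, 63.6, 53.7 and 42.4 CPM in LowAhR+AD+BJ. In LowAhR+AD, replicate 1 was below all Cont libraries and the other replicates were above them. The fitted difference of LowAhR+AD from Cont was 0.50 (SE 0.26, edgeR adjusted p = 0.182), and it was 0.70 and passed the test without replicate 1 (edgeR adjusted p = 0.0258). Against LowAhR the difference was 0.18 (SE 0.26, edgeR adjusted p = 0.700).

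Among the receptor genes, Il1r2, the decoy, changed most. It was at 88.4, 173, 185 and 208 CPM in Cont and at 192, 244, 158 and 116 CPM in LowAhR. It was at 13.0, 34.0, 58.3 and 40.2 CPM in LowAhR+AD and at 39.4, 22.7, 108 and 55.6 CPM in LowAhR+AD+BJ. All LowAhR+AD libraries were below every library without DNCB, and all LowAhR+AD+BJ libraries were below every LowAhR library.

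Il1r2 was 4.88-fold lower in LowAhR+AD than in LowAhR (log2 fold change -2.29, SE 0.46, edgeR adjusted p = 0.00420; exact permutation p = 0.0286) and 4.50-fold lower than in Cont (log2 fold change -2.17, SE 0.46, edgeR adjusted p = 0.00285). Without LowAhR+AD replicate 1, the lowest library, the log2 fold changes were -2.01 (edgeR adjusted p = 0.00679) and -1.91 (0.00392). Both calls held under each of the 24 alternatives run for each, with log2 fold changes from -2.61 to -2.01 against LowAhR and from -2.49 to -1.91 against Cont when single libraries were left out.

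In LowAhR+AD+BJ against LowAhR, Il1r2 was 3.15-fold lower (log2 fold change -1.65, SE 0.45, edgeR adjusted p = 0.0341; exact permutation p = 0.0286). This call was lost without LowAhR replicate 1 (log2 fold change -1.61, edgeR adjusted p = 0.0736), 2 (-1.46, adjusted p = 0.0982) or 3 (-1.71, adjusted p = 0.0615). It was also lost without LowAhR+AD+BJ replicate 1 (-1.52, edgeR adjusted p = 0.103), 2 (-1.40, adjusted p = 0.116) or 4 (-1.65, adjusted p = 0.0914). The fold changes without these libraries stayed within 1 SE of the value from all of them. Between the DNCB groups the difference was 0.63 toward LowAhR+AD+BJ (SE 0.44, edgeR adjusted p = 0.658), and the ranges overlapped.

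**Figure D2:**
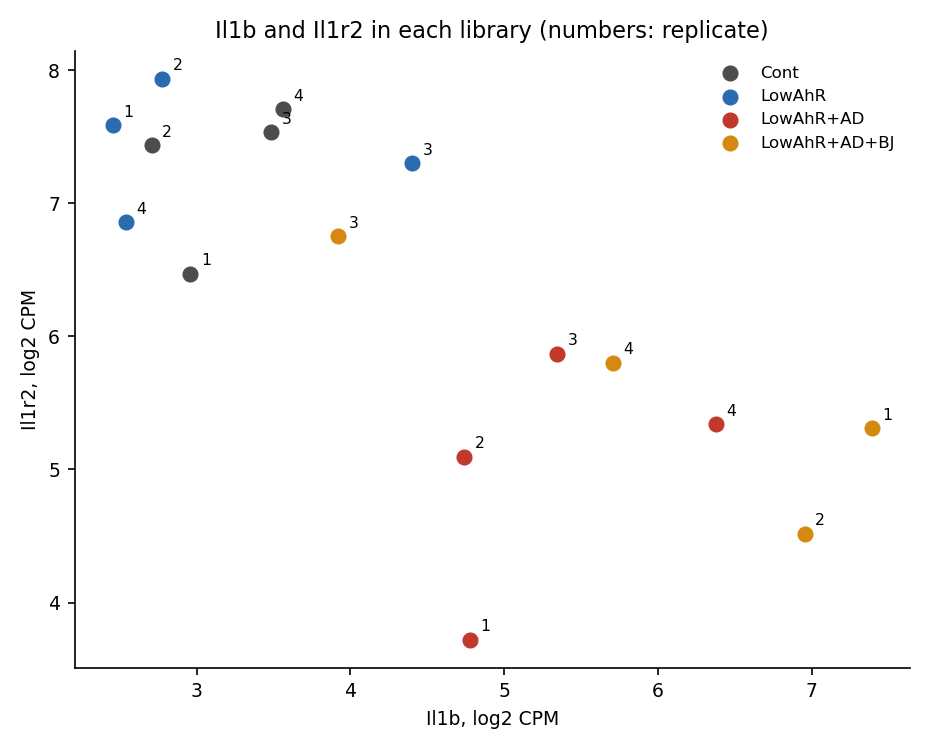
Il1b (horizontal axis) against Il1r2 (vertical axis), both as log2 CPM with a prior count of 2, with 1 point per library coloured by group and numbered by replicate. LowAhR+AD+BJ replicate 3, at 14.9 CPM of Il1b and 108 CPM of Il1r2, lies within the range of the libraries without DNCB for both genes.

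LowAhR+AD+BJ replicate 3 had both the lowest Il1b and the highest Il1r2 of the 8 DNCB libraries. The other LowAhR+AD+BJ libraries had at least 51.9 CPM of Il1b and at most 55.6 CPM of Il1r2.

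Il1r1, which encodes the signalling receptor, was highest in the mice on normal chow. It was at 43.5, 32.9, 31.5 and 30.9 CPM in Cont and at 19.5, 18.9, 23.9 and 17.8 CPM in LowAhR. It was at 26.3, 26.4, 14.6 and 30.7 CPM in LowAhR+AD and at 25.7, 14.97, 19.4 and 25.6 CPM in LowAhR+AD+BJ. All 12 libraries of mice on the low AhR ligand diet were below all 4 Cont libraries, an order that 1.96% of the tested genes shared and that was noticed after the values were seen.

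The Il1r1 difference did not pass the test after adjustment over all genes. LowAhR against Cont gave a log2 fold change of -0.79 (SE 0.27, unadjusted p = 0.0080 and adjusted p = 0.174 in edgeR; exact permutation p = 0.0286), and the adjusted p ranged from 0.0902 to 0.378 over all alternatives. LowAhR+AD against Cont gave -0.50 (SE 0.26, edgeR adjusted p = 0.191). These comparisons share the Cont libraries. The share of all genes without overlap was 11.3% for LowAhR against Cont and 24.7% for LowAhR+AD against Cont, in which 1 and 3 of the 9 genes had no overlap.

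Il1rl1, the gene of ST2, was at 9.43 to 24.3 CPM in Cont, 9.22 to 13.4 CPM in LowAhR, 7.30 to 16.5 CPM in LowAhR+AD and 5.83 to 14.8 CPM in LowAhR+AD+BJ. Its fitted differences lay from -0.40 (LowAhR against Cont, SE 0.39) to 0.02 (LowAhR+AD against LowAhR, SE 0.39), and none passed (lowest edgeR adjusted p = 0.529). In the GRCm38 annotation, coding transcripts of 337 codons, which encode the soluble form, end at 40448148 or 40446723, and those of 567 codons, which encode the membrane form, end at 40465396 or 40465415. The counts sum over these ends, so soluble and membrane ST2 cannot be told apart.

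Il1rap, the shared accessory chain, was at 11.8, 19.6, 8.51 and 9.94 CPM in Cont and at 7.17, 7.30, 11.7 and 7.64 CPM in LowAhR. It was at 4.81, 9.03, 10.9 and 14.1 CPM in LowAhR+AD and at 17.2, 28.1, 8.95 and 9.38 CPM in LowAhR+AD+BJ. The largest fitted difference, LowAhR+AD+BJ against LowAhR, was 0.91 (SE 0.44, edgeR adjusted p = 0.229), with groups that overlapped. Il1rap has 4 coding transcripts with 4 different 3′ ends, which the counts also sum.

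**Figure D3:**
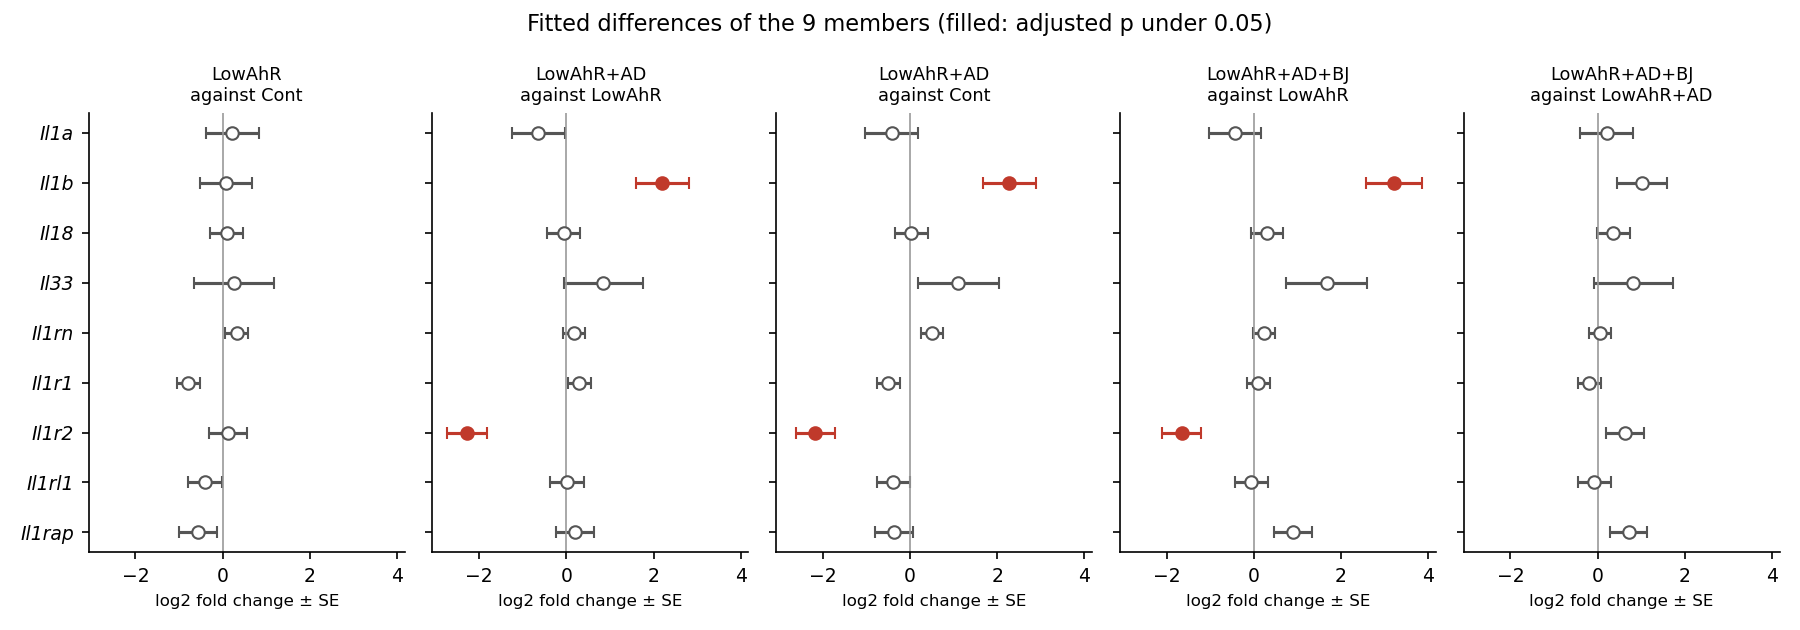
Fitted log2 fold change ± SE (horizontal axis) of the 9 genes (vertical axis) in each of the 5 comparisons, 1 panel each; filled red points have an edgeR adjusted p under 0.05. Il1b and Il1r2 are filled in the 3 comparisons of a DNCB group with a group without DNCB and in no other.

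Over the 9 genes as a set, 2 were called in LowAhR+AD against LowAhR, 2 in LowAhR+AD against Cont and 2 in LowAhR+AD+BJ against LowAhR, in each case Il1b higher and Il1r2 lower. Over all genes 12.6%, 21.8% and 6.77% were called in these comparisons, in this order, and against Cont the share of the 9 genes was close to that of all genes. These comparisons share the LowAhR or the LowAhR+AD libraries, so they are not independent of each other. Groups did not overlap for 2 of the 9 genes in LowAhR+AD against LowAhR, where 18.8% of all genes had none, and for 2 in LowAhR+AD+BJ against LowAhR, where 17.1% had none. Both counts were close to the share of all genes.

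LowAhR against Cont asked whether the diet, with its bedding, changed these genes, and 0 of 9 were called, as were 0% of the 14854 tested genes in edgeR. At an unadjusted p under 0.05 there were 2031 genes, 1 of them among the 9 (Il1r1), and DESeq2 called 491 genes, none of the 9. LowAhR+AD+BJ against LowAhR+AD asked whether the extract changed them in DNCB-painted skin. Again 0 of 9 and 0% of all genes were called in edgeR, with 1405 genes and none of the 9 at an unadjusted p under 0.05. DESeq2 called 17 genes there, none of the 9, and 0 of the 9 had groups without overlap against 5.08% of all genes. The largest fitted differences of the 9 toward LowAhR+AD+BJ were those of Il1b (1.02), Il33 (0.82, SE 0.91, edgeR adjusted p = 0.797) and Il1rap (0.71, SE 0.43, edgeR adjusted p = 0.604). The standard errors over the 9 genes in this comparison ran from 0.26 to 0.91. The size of difference that 4 mice a group could detect was not computed, so the 0 calls do not show that the extract left these genes unchanged.

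Ratios within a library do not depend on how libraries are scaled. The log2 ratio of Il1r2 to Il1r1 counts, decoy over signalling receptor, was 2.18 ± 0.79 in Cont, 3.10 ± 0.48 in LowAhR, 0.43 ± 1.23 in LowAhR+AD and 1.20 ± 0.88 in LowAhR+AD+BJ (mean ± SD, n = 4 each). The smallest ratio was 0.493 on the linear scale, in LowAhR+AD replicate 1, and the largest was 12.9, in LowAhR replicate 2. LowAhR+AD was lower than LowAhR by a difference of -2.67 (exact permutation p = 0.0286; adjusted over 10 ratio tests, p = 0.114), and LowAhR+AD+BJ was lower by a difference of -1.90 (exact permutation p = 0.0286; adjusted p = 0.114). Neither pair of groups overlapped, and with 10 tests in the family no ratio passed the adjusted threshold. The smallest exact p that 4 against 4 allows is 0.0286, so separation in only these 2 pairs could not pass after adjustment over 10 tests. The lack of a pass therefore decides nothing about these ratios. Leaving out LowAhR+AD replicate 1 gave -2.18 for the first of these.

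The log2 ratio of Il1rn to Il1a plus Il1b, antagonist over agonists, was 1.30 ± 0.39 in Cont, 1.48 ± 0.67 in LowAhR, 0.21 ± 0.79 in LowAhR+AD and -0.38 ± 1.19 in LowAhR+AD+BJ. The lowest ratios were in LowAhR+AD replicate 4 (0.583 on the linear scale) and LowAhR+AD+BJ replicates 1, 2 and 4 (0.397, 0.498 and 0.690). These and LowAhR+AD replicates 1 and 3 (1.01 and 1.44) were below every library without DNCB. LowAhR+AD replicate 2 (2.13) and LowAhR+AD+BJ replicate 3 (2.52) were not. Usable tags differ between genes, so a ratio is compared between groups and its own size is not interpreted. The differences from LowAhR were -1.26 for LowAhR+AD (exact permutation p = 0.0571; adjusted p = 0.114) and -1.86 for LowAhR+AD+BJ (exact permutation p = 0.0857; adjusted p = 0.122), and both pairs of groups overlapped.

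**Figure D4:**
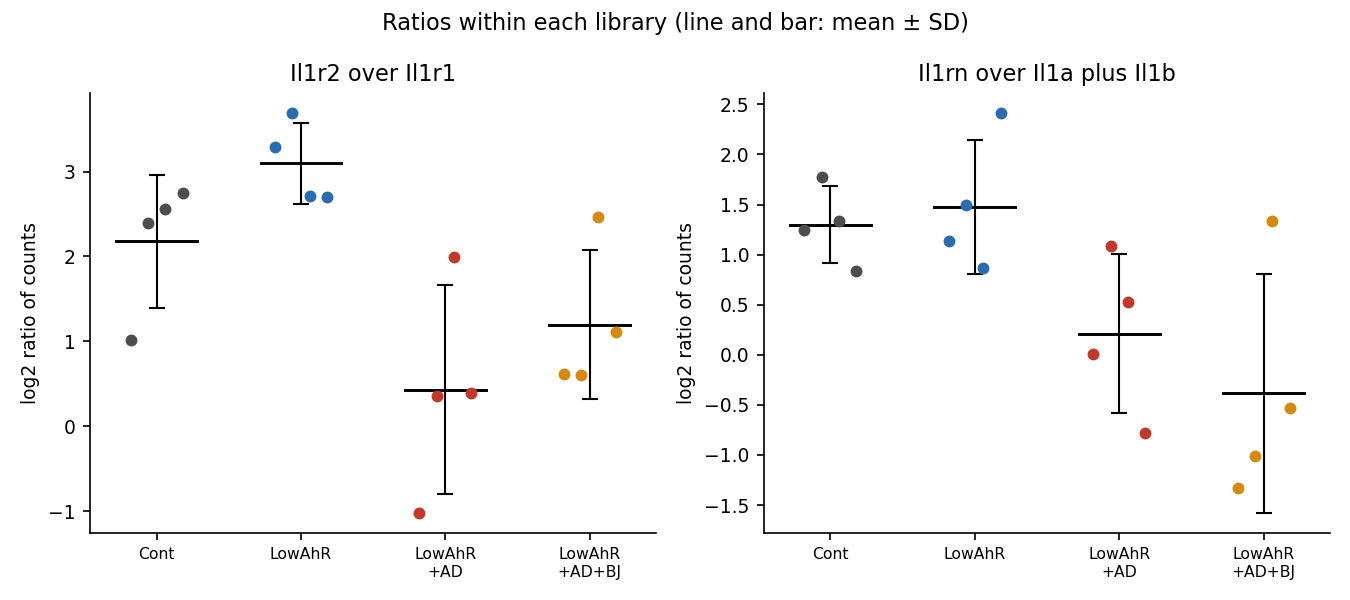
Log2 ratio of counts (vertical axis) of Il1r2 over Il1r1 (left) and of Il1rn over the sum of Il1a and Il1b (right) by group; points are mice, line and bar are mean ± SD (n = 4). The left ratio is lower in both DNCB groups than in LowAhR without overlap.

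Markers of several cell types were called in the same comparisons. Over all genes 12.6% were called in LowAhR+AD against LowAhR, 21.8% in LowAhR+AD against Cont and 6.77% in LowAhR+AD+BJ against LowAhR. Counts below such as 1 of 10 or 1 of 5 were near these shares and are not read as a change of the cell type. The summed level of the 7 tested neutrophil markers was 0.899 to 5.51 CPM in Cont, 6.56 to 19.7 CPM in LowAhR, 20.8 to 118 CPM in LowAhR+AD and 16.6 to 142 CPM in LowAhR+AD+BJ, and 3 of the 7 were called higher in LowAhR+AD than in LowAhR, 6 of 7 in LowAhR+AD than in Cont and 2 of 7 in LowAhR+AD+BJ than in LowAhR. Of the granule genes, Camp was at 0 in Cont, reached 5.36 CPM in LowAhR+AD and was among those called higher there than in Cont, Mpo and Elane stayed at or below 2.12 CPM, and Ngp and Ltf were above 0 only in LowAhR+AD. None of 10 macrophage and monocyte markers was called in any of the 5 comparisons, and 4 of 4 markers of activated keratinocytes were called higher in each comparison of a DNCB group with a group without DNCB. In LowAhR+AD against LowAhR, 8 of 8 skeletal muscle markers and 6 of 7 adipocyte markers were called lower, as were 2 of 7 T cell markers (Cd3g and Cd3e) and 1 of 5 fibroblast markers (Col1a1). In the same comparison 2 of 7 mast cell markers (Tpsb2 and Hdc) and 2 of 7 markers of basal and suprabasal keratinocytes (Krt5 and Krt14) were called higher, as was 1 of 10 hair follicle markers (Dlx3), while 2 of 6 sebaceous gland markers (Scd1 and Awat2) were called lower. In LowAhR+AD against Cont, 9 of 10 hair follicle markers were called higher. There 5 of 8 skeletal muscle and 2 of 7 adipocyte markers were called lower. Also higher there were 1 of 5 endothelial markers (Pecam1) and 2 of 3 tested basophil and eosinophil markers. These were Siglecf and Ccr3, with means of 2.31 and 3.39 CPM in LowAhR+AD. In LowAhR+AD+BJ against LowAhR, 1 of 8 skeletal muscle and 5 of 7 adipocyte markers were called lower. The part of these cell types in the Il1b and Il1r2 differences was not tested. With library sizes computed without the muscle, hair follicle and fat genes, the same members were called. The TMM factors were recomputed on these sizes with those genes still in the fit, which offsets most of such a change. The unchanged calls therefore decide nothing about the part of these tissues.

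The genes with the pattern most like that of Il1b over the 16 libraries were Degs2 (root mean square difference of centred log2 CPM 0.67) and Ifitm1 (0.75), against a root mean square of 1.56 for Il1b about its own mean. Degs2, an enzyme of phytoceramide synthesis, averaged 6.82 ± 1.11 CPM in Cont, 10.5 ± 1.95 in LowAhR, 61.2 ± 19.6 in LowAhR+AD and 65.4 ± 29.8 in LowAhR+AD+BJ (SD, n = 4). For Il1r2 they were Adh1 (0.37), an alcohol dehydrogenase that oxidizes retinol, and Prrg3 (0.38), against 1.23 for Il1r2 about its own mean. Adh1 averaged 297 ± 70.7 CPM in Cont, 239 ± 60.1 in LowAhR, 58.8 ± 37.4 in LowAhR+AD and 82.4 ± 36.2 in LowAhR+AD+BJ. Of 9381 genes with a mean of at least 10 CPM, these were the closest by this measure, which is a description over samples of 4 groups and has no test.

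The remaining ligands of the family were measured beside the 9 genes. The interleukin 36 ligands Il1f6 (interleukin 36α) and Il1f9 (interleukin 36γ), the antagonist Il1f5 and Il1f10 were tested, and 0 of 4 were called in any comparison. Over all genes 12.6% were called in LowAhR+AD against LowAhR. Il1f6 was at 76.6 CPM in 1 LowAhR+AD library and was at 0 in replicate 1, the library that stood apart, with a group mean of 24.6 ± 35.1 CPM (SD, n = 4) against 7.71 ± 4.08 in LowAhR. Without replicate 1 the Il1f6 log2 fold change was 2.08 (edgeR adjusted p = 0.0753), beside 1.68 with it (SE 1.02, edgeR adjusted p = 0.299). Il1f8 was too low to test, at no more than 1.35 CPM.

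Of 7 other receptor and inhibitor genes, 5 were tested and 0 were called, beside 12.6% of all genes in LowAhR+AD against LowAhR. Il1rapl1 and Il1rapl2 were too low. Il18r1, the binding chain of the interleukin 18 receptor, was at 7.30, 12.9, 9.50 and 7.28 CPM in LowAhR and at 0, 1.07, 2.10 and 3.69 CPM in LowAhR+AD. These groups did not overlap, and the log2 fold change was -2.42 (SE 0.81, edgeR adjusted p = 0.0573). The 0 was in replicate 1, and without that library the log2 fold change was -2.02 and passed the test (edgeR adjusted p = 0.0329). Il18bp, a secreted inhibitor of interleukin 18, was at 2.43 to 3.46 CPM in LowAhR and 3.58 to 13.1 CPM in LowAhR+AD+BJ (log2 fold change 1.23, SE 0.58, edgeR adjusted p = 0.219). Il1rl2, Il18rap and Sigirr had group means of 0.856 to 5.37 CPM. The highest mean, of Sigirr in LowAhR+AD, rested on replicate 1, at 15.2 CPM beside 1.23, 1.79 and 3.29 CPM in the other replicates. Il18rap was at 11.1 CPM in that library, beside 0.738, 0.855 and 0.883 CPM. The median log2 fold change of LowAhR+AD from LowAhR was 0.36 over the 5 tested genes and 0.31 over the 4 tested ligands, beside 0.04 over all genes.

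Of 11 inflammasome and processing genes, 10 were tested. In LowAhR+AD against LowAhR 6.21% of all genes were called lower and 6.42% higher. Of the 10, 1 was called lower and 0 higher, close to that share, with a median log2 fold change of -0.04 beside 0.04 over all genes. The gene was Casp4, which encodes the caspase of the non-canonical inflammasome, at 18.8, 24.3, 13.3 and 16.1 CPM in LowAhR and 3.21, 10.4, 8.71 and 7.95 CPM in LowAhR+AD (log2 fold change -1.26, SE 0.40, edgeR adjusted p = 0.0454). Without LowAhR+AD replicate 1, the lowest, it was -1.01 and did not pass (edgeR adjusted p = 0.0909), and the call was lost under 16 of 24 alternatives. Casp4 was also lower than in Cont (-1.81, SE 0.40, edgeR adjusted p = 0.00407), a call kept under all 24. Casp1, the protease that cuts interleukin 1β, averaged 75.0 ± 29.7 CPM in LowAhR and 47.0 ± 14.3 CPM in LowAhR+AD and was not called. In LowAhR+AD+BJ it averaged 98.0 ± 20.5 CPM, above LowAhR+AD without overlap (log2 fold change 1.06, SE 0.29, edgeR adjusted p = 0.498). Between these groups 5.08% of all genes had no overlap, and Casp1 was not a gene the naming rule took. Nlrp3 was too low to test. Pycard, the inflammasome adaptor ASC, was called only in LowAhR+AD against Cont (log2 fold change 0.79, SE 0.21, edgeR adjusted p = 0.0131) and is named after its values were seen.

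All 16 genes of MyD88 signalling were tested in LowAhR+AD against LowAhR, where 6.21% of all genes were called lower and 6.42% higher. Of the 16, 1 was called lower and 0 higher, close to that share (median log2 fold change -0.07). It was Irak3, which encodes an inhibitory kinase-like protein of this pathway, at 22.5, 30.6, 13.5 and 18.6 CPM in LowAhR and 1.22, 11.2, 7.31 and 3.45 CPM in LowAhR+AD (log2 fold change -1.87, SE 0.54, edgeR adjusted p = 0.0306). Without LowAhR+AD replicate 1 it was -1.54 (edgeR adjusted p = 0.0473), and the call was lost without LowAhR replicate 1 (adjusted p = 0.0656) or 2 (0.0898) or LowAhR+AD replicate 4 (0.0811). Against Cont it was also lower (-2.19, SE 0.55, edgeR adjusted p = 0.00866). In LowAhR+AD+BJ it was at 11.0, 6.01, 21.3 and 5.35 CPM, and its difference from LowAhR did not pass (-0.96, SE 0.53, edgeR adjusted p = 0.310).

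Of 14 target genes of NF-kB and interleukin 1, 11 were tested; Il6, Csf2 and Csf3 were too low. In LowAhR+AD against LowAhR 2 were called higher and 0 lower, and in LowAhR+AD+BJ against LowAhR 3 were called higher and 0 lower. Over all genes 6.42% and 3.64% were called higher in these comparisons, in this order, and 6.21% and 3.12% lower. The median log2 fold changes of the list were 0.11 and 0.30, beside 0.04 and 0.01 over all genes. Against Cont the median went the other way. It was -0.59 for LowAhR+AD, with 2 called higher and 2 lower, and -0.51 for LowAhR, with 0 called. The medians over all genes were 0.05 and 0.03, in this order. In LowAhR+AD against Cont 12.3% of all genes were called higher and 9.47% lower. Saa3, an acute phase protein, was at 3.79 to 8.85 CPM in LowAhR, 101.3 to 3450 CPM in LowAhR+AD and 610 to 7329 CPM in LowAhR+AD+BJ, with log2 fold changes from LowAhR of 8.20 (SE 1.11, edgeR adjusted p = 0.000304) and 8.78 (SE 1.14, edgeR adjusted p = 0.000503) in this order. Lcn2, which encodes a defence protein that binds bacterial iron carriers, was at 2.51 to 7.58 CPM in LowAhR, 7.69 to 123 CPM in LowAhR+AD and 21.5 to 252 CPM in LowAhR+AD+BJ. Its log2 fold changes from LowAhR were 4.26 (SE 0.81, edgeR adjusted p = 0.00327) in LowAhR+AD and 4.73 (SE 0.83, edgeR adjusted p = 0.00360) in LowAhR+AD+BJ. Cxcl1, a neutrophil chemokine, was at 0.406 to 1.79 CPM in LowAhR and 3.19 to 43.0 CPM in LowAhR+AD+BJ (log2 fold change 3.98, SE 1.16, edgeR adjusted p = 0.0467), a call lost under 12 of 23 alternatives. Between the DNCB groups 0 of the 11 were called.

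Nfkbia, the NF-kB inhibitor IκBα and itself a target, was not a gene the naming rule took, but it showed an order like that of Il1r1 when its values were seen. It was at 637, 502, 657 and 507 CPM in Cont, 316 to 345 CPM in LowAhR, 208 to 444 CPM in LowAhR+AD and 252 to 297 CPM in LowAhR+AD+BJ. It was called lower in LowAhR+AD against Cont (means 288 ± 106 and 576 ± 82.9 CPM, SD, n = 4, edgeR adjusted p = 0.00432), as was Nfkbiz (-0.92, SE 0.31, edgeR adjusted p = 0.0390), while LowAhR against Cont gave -0.81 for Nfkbia (SE 0.22, edgeR adjusted p = 0.102), which passed without LowAhR+AD replicate 1 (edgeR adjusted p = 0.0179).

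**Figure D5:**
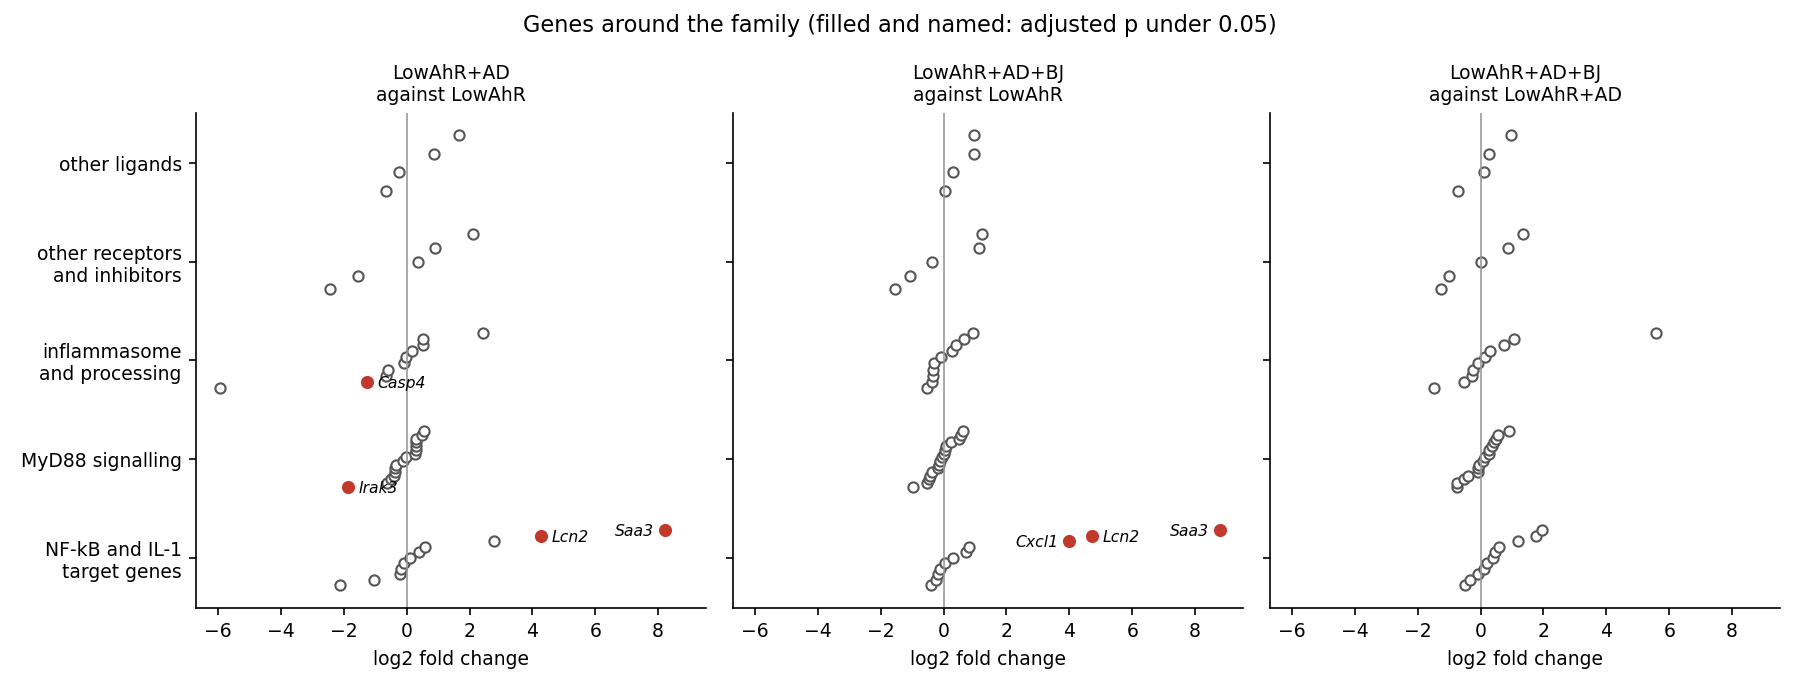
Fitted log2 fold change (horizontal axis) of the tested genes of 5 fixed lists around the family (vertical axis, each point 1 gene) in 3 comparisons; filled and named points have an edgeR adjusted p under 0.05. Saa3, Lcn2 and Cxcl1 are filled on the right of the zero line, Casp4 and Irak3 on its left, and no gene is filled between the DNCB groups.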

How the data were processed

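The authors deposited, for each library, a table of read counts per gene with no normalization, and these counts were used as deposited. Libraries came from total RNA by the QuantSeq 3′ kit and single-end sequencing. The submitters' processing notes name mm10, Bowtie2 and bedtools without versions or roles, and whether counting used strand is not given in the sources used here. A 3′ tag count does not depend on transcript length, but the usable tags differ between genes, so levels were compared between groups and not between genes. Replicate pairs differed by more than sampling noise (chi-square per degree of freedom 16.4 to 285), and 35 of the 23238 symbols had several rows, none of them a member.

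Rows with enough counts (filterByExpr, minimum count 10, minimum total 15) gave 14854 tested rows. edgeR 4.0.16 in R 4.3.3 fitted 1 quasi-likelihood model to all 16 libraries with TMM factors (0.892 to 1.16), with Benjamini-Hochberg adjustment over every tested row and a threshold of 0.05. Levels are TMM-scaled CPM, log2 CPM used a prior count of 2, and standard errors were derived from the F statistic. The 45 member tests (9 genes, 5 comparisons) were read from this fit. Beside them, two-sided exact permutation tests over samples were run on log2 CPM, with no adjustment, and on ratios with 0.5 added to each count, adjusted over 10 tests. Alternatives were RLE factors, DESeq2 1.42.0, limma 3.58.1 voom, no filter, a stricter filter (10 counts or more in each of the libraries), a model of just the 8 libraries of a comparison, a block for the replicate number, library sizes without muscle, hair follicle and fat genes, and leaving out each library. The same alternatives for named genes outside the 9 were added after the values were seen. The scripts were tested on simulated data. Single mice were the samples; the labels share replicate numbers across groups but these were separate animals.

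The members, the gene lists and the naming rule were chosen with earlier results of these data known. The rule named all 9 members, the other ligands and receptors, and the 2 genes most like each called member. It also named up to 4 genes per list called in LowAhR+AD or LowAhR+AD+BJ against LowAhR. Casp1, Pycard, Nfkbia and Nfkbiz were named outside this rule.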

Additional observations from a re-analysis of the deposited data

Results flagged for a closer look

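Of 44 sets of 4 libraries, 36 of 1 gene in 1 group on the log2 CPM scale and 8 of 1 ratio in 1 group, 3 held a single library far from the other replicates, its gap to the nearest taking more of the range than Dixon's 95% critical value. Chance gives about 1 such set in 20. Il1b was at 20.9 CPM in LowAhR replicate 3, where the other replicates were at 5.28 to 6.66 CPM. Il1rap was at 11.7 CPM in the same library, where the others were at 7.17 to 7.64 CPM. Il18 was at 107 CPM in LowAhR+AD+BJ replicate 1, where the others were at 166 to 178 CPM.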

How the results depend on the processing

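The calls of 0 members in LowAhR against Cont and in LowAhR+AD+BJ against LowAhR+AD did not change under any of the 24 alternatives. With limma voom the members called fell from 2 to 1 (Il1r2) in each of the 3 comparisons of a DNCB group with a group without DNCB. Leaving out single libraries gave 1 to 2 members in LowAhR+AD against LowAhR, 1 to 3 against Cont and 1 to 2 in LowAhR+AD+BJ against LowAhR. Same-numbered mice did not deviate together (correlations of deviations from -0.0547 to 0.167), so the replicate number was not taken as a pairing. With it as a replicate block, 1 member (Il1r2) was called in LowAhR+AD against LowAhR, Il1b having an adjusted p of 0.0505, and no other member call changed.

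The genes whose sign changed were not called in the comparison concerned. With limma voom these were Il1b in LowAhR against Cont (-0.16), Il33 in LowAhR+AD against LowAhR (-1.76) and against Cont (-1.20), Il1rl1 in LowAhR+AD against LowAhR (-0.023) and Il18 in LowAhR+AD against Cont (-0.29). With the replicate block they were Il1rl1 (-0.036) and Il18 (-0.16) in the same comparisons. Leaving out single libraries moved the log2 differences of LowAhR against Cont from -0.063 to 0.67 for Il1a, -0.64 to 0.28 for Il1b, -0.079 to 0.76 for Il33, -0.094 to 0.275 for Il1r2 and -0.14 to 0.38 for the ratio of Il1rn to its agonists. In LowAhR+AD against LowAhR they ran from -0.0080 to 0.39 for Il1rn, -0.50 to 1.27 for Il33, -0.70 to 0.23 for Il18, -0.22 to 0.19 for Il1rl1 and -0.036 to 0.42 for Il1rap. In LowAhR+AD against Cont they ran from -1.10 to 0.021 for Il1a, -0.24 to 1.62 for Il33 and -0.60 to 0.32 for Il18. In LowAhR+AD+BJ against LowAhR+AD they ran from -0.11 to 0.89 for Il1a, -0.16 to 0.25 for Il1rn and -0.26 to 0.15 for Il1rl1. In LowAhR+AD+BJ against LowAhR they ran from -0.0012 to 0.24 for Il1r1 and -0.23 to 0.16 for Il1rl1. Il1f6 in LowAhR+AD against LowAhR was -0.62 with limma voom and ran from -0.078 to 2.08. The causes were not tested.

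For the genes outside the 9 these alternatives were added after the data were seen. The Casp4 call in LowAhR+AD against LowAhR had adjusted p-values from 0.0333 to 0.130 without single libraries, and that of Cxcl1 in LowAhR+AD+BJ against LowAhR from 0.0239 to 0.205. The Nfkbiz call against Cont was lost under 7 of 24 alternatives. With limma voom Lcn2 was not called in LowAhR+AD (adjusted p = 0.185) or LowAhR+AD+BJ (0.184) against LowAhR, while Saa3 was.

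Over all genes, calls in LowAhR against Cont went from 0 to 491 with DESeq2, 250 with only the 8 libraries, 45 with at least 10 counts in every library and 475 without LowAhR+AD replicate 1. LowAhR+AD against LowAhR fell from 1876 to 765 with only the 8 libraries and to 1128 without LowAhR replicate 2. LowAhR+AD+BJ against LowAhR went from 1005 to 1676 with DESeq2, and from 414 without LowAhR+AD+BJ replicate 2 to 1716 without LowAhR+AD replicate 1. Il33 had no value under the filter of at least 10 counts in every library. The counts of the 9 genes were at least 31 in each library except for Il1a (18) and Il33 (0) in LowAhR+AD replicate 1.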
